A study of Mus musculus with 6 samples.

Results

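The chain that carries the gonadotropin-releasing hormone (GnRH) signal to calcium was described by 10 genes: the receptor Gnrhr, the G protein α subunit genes Gnaq, Gna11 and Gnas, the phospholipase C β genes Plcb1, Plcb3 and Plcb4, and the inositol trisphosphate (IP3) receptor genes Itpr1, Itpr2 and Itpr3. They were taken by symbol from a count table of 47069 genes, and all 10 were found. The cells were LβT2, an immortalized mouse gonadotrope line from the anterior pituitary, at passage 14. Every library came from cells given 2 nM GnRH over 40 min, so GnRH is shared by both groups and vehicle-treated cells were not analysed here. In the fresh group, 3 libraries were made from trypsinized and pelleted cells that were lysed directly in a guanidium thiocyanate buffer. In the RNA-Best group, 3 libraries were made from cells that were kept at 4°C in RNA-Best, a proprietary preservation reagent, over at least 4 days before the same lysis. Bulk polyA RNA was sequenced as single reads, and the comparison of the groups asks how the transcript levels of the chain in preserved cells relate to those in fresh cells.

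Gonadotropes are the pituitary cells that secrete luteinizing hormone and follicle-stimulating hormone when GnRH reaches them from the hypothalamus. The GnRH receptor is a G protein-coupled receptor that acts mainly through the Gq family. The activated α subunit switches on phospholipase C β, which splits a membrane phosphoinositide into diacylglycerol and IP3, and IP3 opens calcium channels of the endoplasmic reticulum, the IP3 receptors. Gs, whose α subunit is encoded by Gnas, instead stimulates adenylyl cyclase.

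The libraries held 14477304 to 47438746 counts in the fresh group and 4909418 to 11999363 in the RNA-Best group, so every fresh library was deeper. Of the 7 gonadotrope markers, 6 had counts in the libraries, and Fshb, the β subunit of follicle-stimulating hormone, had none. Their summed level was 3584 to 3620.0 CPM (counts per 1000000 of the library total) in fresh and 3042 to 3122 CPM in RNA-Best libraries. Besides Gnrhr, which was higher, 4 of these markers were called lower in RNA-Best (Cga, Nr5a1, Pitx1 and Gata2, with log2 fold changes of -0.36, -0.21, -0.22 and -0.07 and edgeR adjusted p-values of 7.56e-14, 5.33e-08, 5.35e-08 and 0.0344), and Lhb did not pass the test (0.03, edgeR adjusted p = 0.775). With an offset for the GC content of genes in the model the value of Pitx1 was -0.08 (edgeR adjusted p = 0.00818), that of Nr5a1 -0.10 (edgeR adjusted p = 0.00156) and that of Gata2 0.03, where the call was lost (edgeR adjusted p = 0.348). With an offset for exonic length Cga was at -0.22 and Gata2 at -0.15, both called lower (edgeR adjusted p = 1.79e-08 and 3.25e-05), and Lhb was called higher (0.18, edgeR adjusted p = 0.0205). Both endothelial markers were present, with a summed level of 189.5 to 192 CPM in fresh and 194 to 207 CPM in RNA-Best libraries. Cdh5 was called higher (log2 fold change 0.12, edgeR adjusted p = 0.00228) and Pecam1 lower (-0.15, edgeR adjusted p = 0.015, but 0.085 with DESeq2). The thyrotrope marker Tshb was called higher at a low level, from 0.909 ± 0.137 to 1.64 ± 0.563 CPM (0.91, edgeR adjusted p = 0.0035, but 0.0759 with DESeq2), and the immune marker Cd68 had 2.79 to 4.07 CPM. The other markers of pituitary, fibroblast and immune cells were at or near 0, with Pou1f1, Prl, Dcn and Ptprc without a count and a highest value of 1.37 CPM, for Aldh1l1. The part of these markers in the results was not tested. In bulk RNA, fewer cells of a type and less RNA per cell cannot be told apart. Whether the 3 libraries of each group stem from separate cultures is not given in the sources used here, so p-values measure the spread between these libraries, which may be technical.

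All 10 genes passed the filter on low counts. In RNA-Best, 8 of them were significantly higher, Gna11 was lower, and Plcb1 did not pass the test (edgeR quasi-likelihood test, Benjamini-Hochberg adjusted p below 0.05). Over all 14736 genes tested, 50.8% were called, with 26.0% higher and 24.8% lower. The same 8 genes had every RNA-Best value above every fresh value, and Gna11 had every RNA-Best value below, where 57.5% of all genes did one or the other, 30.4% above and 27.1% below. Tested against a 1.2-fold change with glmTreat of edgeR, Gnrhr, Gnas, Plcb4 and Itpr1 were called higher and no gene of the 10 lower, while 11.5% of all genes were called, 8.67% higher and 2.82% lower. The median log2 fold change (RNA-Best minus fresh) was 0.34 over the 10 genes and -0.01 over all genes tested.

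**Figure D1:**
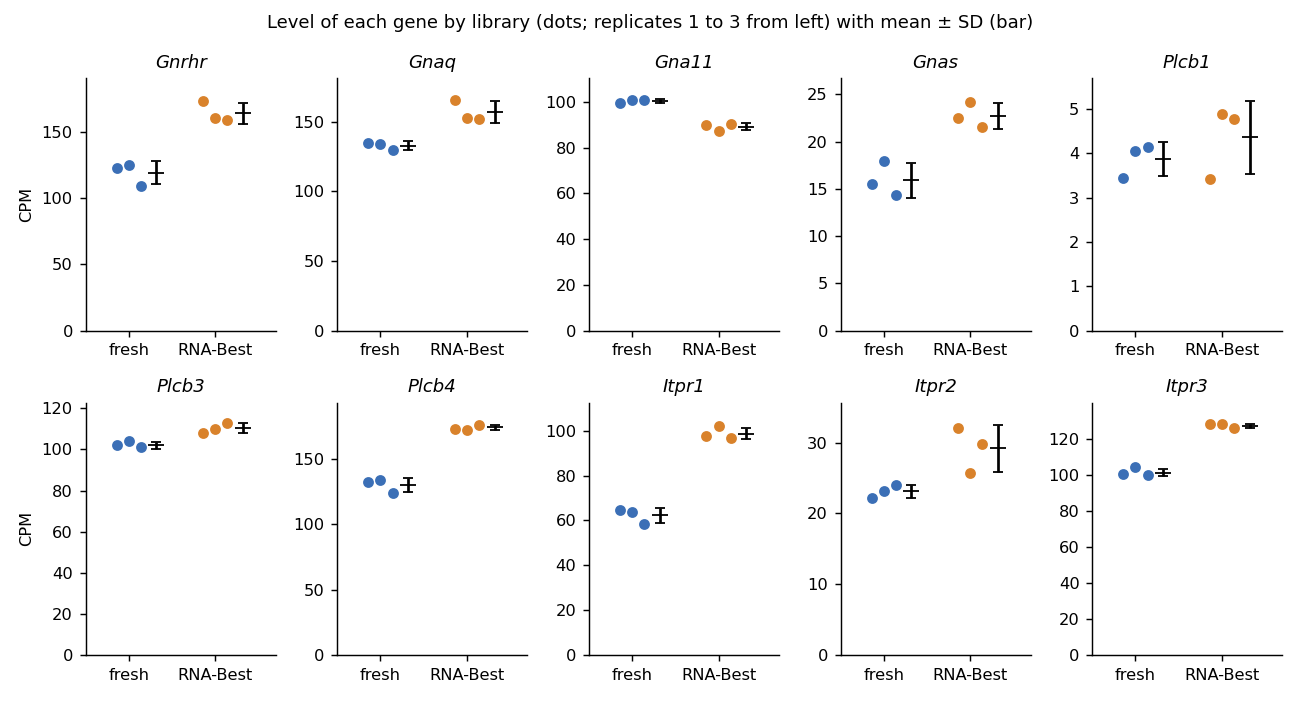
Level of each of the 10 genes in each library in CPM, with 1 panel per gene and axes that start at 0. Dots are libraries in the order of replicates 1 to 3 (blue, fresh; orange, RNA-Best), and the black bars beside them are the mean ± SD. The RNA-Best libraries lie above the fresh libraries in 8 genes, below them in Gna11, and on both sides of them in Plcb1.

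Gnrhr, the receptor that GnRH binds (chromosome 5, bases 86180754 to 86197901 of GRCm38, minus strand), had 123, 125 and 109 CPM in the fresh libraries and 173, 160.3 and 159 CPM in the RNA-Best libraries. The groups were well apart, with the lowest RNA-Best library far above the highest fresh library. The mean rose from 119 ± 8.73 CPM (SD, n = 3) to 164 ± 7.72 CPM (SD, n = 3), with a fitted fold of 1.35. Folds given as fitted are those of the edgeR model on counts, and they can differ from the ratio of the CPM means. Its log2 fold change of 0.43 (95% confidence interval 0.35 to 0.51, edgeR adjusted p = 5.66e-11) stood at percentile 90.7 of all genes tested. The third fresh library was the lowest, and the coefficient of variation among fresh libraries was 7.33%, where counting error alone gives 1.83%. Gnrhr remained called higher in all 17 alternative analyses, with log2 fold changes from 0.27 to 0.49.

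Gnaq, which encodes the α subunit of Gq (chromosome 19, bases 16132831 to 16387463, plus strand), measured 135, 134 and 129.6 CPM in fresh and 166, 153 and 152 CPM in RNA-Best libraries. All 3 RNA-Best libraries were higher than any fresh library, the first of them most. The mean rose from 133 ± 3.02 to 157 ± 8.06 CPM (SD, n = 3 each), with a fitted fold of 1.17 and a log2 fold change of 0.22 (95% interval 0.15 to 0.29, edgeR adjusted p = 2.49e-06).

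Gna11, which encodes the closely related α subunit of G11 (chromosome 10, bases 81528724 to 81545190, minus strand), measured 99.5, 101 and 101 CPM in fresh and 89.9, 87.4 and 90.2 CPM in RNA-Best libraries. It was the one gene of the 10 whose libraries moved down, and its groups did not overlap. Its mean fell from 100.5 ± 0.892 to 89.2 ± 1.55 CPM (SD, n = 3 each), a log2 fold change of -0.18 (95% interval -0.26 to -0.10, edgeR adjusted p = 0.000128). Measured as RPKM, which divides CPM by exonic length in kb, Gna11 was above Gnaq in fresh libraries, with levels of 24.5 ± 0.218 and 21.5 ± 0.488 RPKM. In RNA-Best the order was reversed, with 21.8 ± 0.377 RPKM for Gna11 and 25.4 ± 1.3 RPKM for Gnaq. The sum of both levels was 46.0 ± 0.451 RPKM in fresh and 47.1 ± 1.48 RPKM in RNA-Best libraries, a ratio of 1.02. Gnaq made up 47.4%, 46.7% and 46.0% of that sum in fresh and 55.0%, 53.7% and 52.7% in RNA-Best libraries. The shares did not overlap, and their means differed by 7.1 percentage points (exact permutation test, two-sided, p = 0.1, adjusted over 7 shares p = 0.14).

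Because Gnaq and Gna11 encode near relatives, their coding sequences were compared to see whether a read could belong to both. Both coding parts are 1077 bases long without the stop codon, and the longest stretch they share is 38 bases. Neither Gnaq nor Gna11 had a 100-base stretch in its annotated transcripts that was also found in another gene, on either strand. This search covers exact matches among annotated transcripts only. Gna11 had values that were not whole numbers, with 4033.5 counts in the first and 4804.5 in the second fresh library.

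Gnas, which encodes the α subunit of Gs (chromosome 2, bases 174284320 to 174346744, plus strand), had 15.5, 17.9 and 14.3 CPM in fresh and 22.5, 24.2 and 21.5 CPM in RNA-Best libraries. The groups did not overlap, and the second library of each group was its highest. Its mean went from 15.9 ± 1.85 to 22.7 ± 1.39 CPM (SD, n = 3 each), with a fitted fold of 1.35 and a log2 fold change of 0.44 (95% interval 0.27 to 0.60, edgeR adjusted p = 2.61e-05). With an offset for exonic length in the model the log2 fold change was 0.15 and not significant (edgeR adjusted p = 0.123). With this offset and a term for the replicate number (replicate block) together it was 0.22 and called higher (edgeR adjusted p = 0.0171).

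The annotation at Gnas limits what its value covers. Gm20721, annotated as a protein-coding gene on the opposite strand (bases 174330319 to 174346712), overlaps 1469 exonic bases of Gnas, and the antisense gene Nespas overlaps a further 988, in all 22% of the exonic length. In the 11-exon coding transcript Gnas-207, 10 exons are covered by Gm20721 over more than 90% of their bases. Gm20721 had 3 counts in the 6 libraries together, and Nespas 8 to 37 per library. Whether the counting used strand, and how reads that lie in more than 1 gene were treated, is not given in the sources used here. The coding transcripts Gnas-204 and Gnas-210 are covered by Gm20721 over 0.0% of their bases. The value given for Gnas therefore cannot be read as its whole level, and it may hold some of its transcripts more fully than others.

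Plcb1, a phospholipase C β (chromosome 2, bases 134786067 to 135475258, plus strand), was the lowest of the 10 genes, with 3.43, 4.04 and 4.14 CPM in fresh and 3.42, 4.89 and 4.78 CPM in RNA-Best libraries. The lowest value of all was in the RNA-Best group, so the groups overlapped. The log2 fold change of 0.17 (95% interval -0.15 to 0.48) did not pass the test (edgeR adjusted p = 0.393). It was 0.04 without the third RNA-Best library, 0.07 without the first fresh library and 0.32 without the first RNA-Best library, and did not pass in these fits either (edgeR adjusted p = 0.911, 0.744 and 0.149). Counts ranged from 24 to 191.5 per library, and counting error alone gives a coefficient of variation of 17.6% in the RNA-Best group, where 18.8% was seen.

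Plcb3 (chromosome 19, bases 6952325 to 6976470, minus strand) measured 102, 104 and 101 CPM in fresh and 108, 109.8 and 113 CPM in RNA-Best libraries. The groups did not overlap, but the gap between them was small. The mean went from 102 ± 1.81 to 110.4 ± 2.6 CPM (SD, n = 3 each), with a fitted fold of 1.07 and a log2 fold change of 0.10 (95% interval 0.02 to 0.17, edgeR adjusted p = 0.0252). This call was lost with the Wald test of DESeq2 (adjusted p = 0.148), without a filter (edgeR adjusted p = 0.41), after thinning to equal depth (edgeR adjusted p = 0.456), without the first fresh library (edgeR adjusted p = 0.0623) and without the third RNA-Best library (edgeR adjusted p = 0.194). With the length offset the log2 fold change was -0.05 (edgeR adjusted p = 0.302).

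Plcb4 (chromosome 2, bases 135659011 to 136014593, plus strand) had 132, 134 and 124 CPM in fresh and 173, 172 and 176 CPM in RNA-Best libraries. The RNA-Best libraries lay close together and well above the fresh ones. The mean rose from 130.1 ± 5.44 to 174 ± 1.74 CPM (SD, n = 3 each), with a fitted fold of 1.31 and a log2 fold change of 0.40 (95% interval 0.33 to 0.46, edgeR adjusted p = 7.04e-12). Plcb4 was called higher in all 17 alternative analyses.

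Per length, Plcb3 and Plcb4 were level in fresh libraries, at 14.7 ± 0.26 and 14.5 ± 0.607 RPKM, with overlapping ranges. In RNA-Best libraries Plcb4 was above Plcb3, at 19.4 ± 0.194 against 15.9 ± 0.373 RPKM. The share of Plcb4 in the summed level of the 3 phospholipase C β genes was 49.6%, 49.4% and 48.3% in fresh and 54.9%, 54.2% and 53.9% in RNA-Best libraries. The groups did not overlap, and the mean share was higher by 5.26 percentage points (exact permutation test, two-sided, p = 0.1, adjusted over 7 shares p = 0.14). An exact test of 3 libraries against 3 gives no p below 0.1. Plcb3 took 49.7% ± 0.623 of the summed level in fresh and 44.5% ± 0.327 in RNA-Best, and Plcb1 1.18% ± 0.132 and 1.1% ± 0.198.

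Itpr1, an IP3-gated calcium channel (chromosome 6, bases 108213096 to 108551109, plus strand), measured 64.7, 63.7 and 58.4 CPM in fresh and 97.8, 102 and 96.8 CPM in RNA-Best libraries. The groups were well apart, and the fold change was the highest of the 10 genes in the fit without a length offset. The mean rose from 62.3 ± 3.4 to 98.7 ± 2.57 CPM (SD, n = 3 each), with a fitted fold of 1.54 and a log2 fold change of 0.63 (95% interval 0.54 to 0.71, edgeR adjusted p = 1.38e-14), which stood at percentile 95.8 of all genes tested. With the length offset the log2 fold change was 0.20 and still significant (edgeR adjusted p = 8.38e-05), and the gene was called higher in all 17 alternatives.

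Itpr2 (chromosome 6, bases 146108299 to 146502223, minus strand) had 22.2, 23.1 and 24.0 CPM in fresh and 32.1, 25.7 and 29.8 CPM in RNA-Best libraries. The RNA-Best libraries were all higher but spread widely, and the second of them was close to the fresh group. Mean level rose from 23.1 ± 0.895 to 29.2 ± 3.28 CPM (SD, n = 3 each), with a fitted fold of 1.29 and a log2 fold change of 0.36 (95% interval 0.23 to 0.50, edgeR adjusted p = 1.70e-05). The coefficient of variation in RNA-Best was 11.2%, where counting error alone gives 6.9%. With the length offset the log2 fold change was -0.00 and did not pass the test (edgeR adjusted p = 0.999). After thinning to equal depth it was 0.23, and the call was lost (edgeR adjusted p = 0.0743).

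Itpr3 (chromosome 17, bases 27057304 to 27122223, plus strand) measured 100.5, 104 and 99.7 CPM in fresh and 128, 128 and 126 CPM in RNA-Best libraries. Both groups were tight and did not overlap. The mean rose from 101 ± 2.04 to 127 ± 0.969 CPM (SD, n = 3 each), with a fitted fold of 1.24 and a log2 fold change of 0.31 (95% interval 0.24 to 0.38, edgeR adjusted p = 3.57e-09).

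Itpr3 was the main IP3 receptor transcript in both groups, at 11.2 ± 0.226 RPKM in fresh and 14.1 ± 0.107 RPKM in RNA-Best libraries. Itpr1 followed with 3.4 ± 0.186 and 5.39 ± 0.14 RPKM, and Itpr2 with 1.56 ± 0.0605 and 1.97 ± 0.221 RPKM. The Itpr1 share of the summed level was 21.8%, 21.1% and 20.1% in fresh and 24.6%, 25.8% and 24.8% in RNA-Best libraries, without overlap. Its mean was higher in RNA-Best by 4.1 percentage points, and that of Itpr3 fell by 3.64 percentage points from 69.4% ± 0.416 (exact permutation tests, two-sided, p = 0.1, adjusted p = 0.14 for each). The Itpr2 share overlapped between the groups, with means of 9.64% ± 0.503 (fresh) and 9.18% ± 0.997 (RNA-Best). The summed level of the 3 receptors was 16.2 ± 0.331 RPKM in fresh and 21.5 ± 0.198 RPKM in RNA-Best, a ratio of 1.33. That of the phospholipase C β genes was 29.5 ± 0.838 and 35.6 ± 0.586 RPKM, a ratio of 1.21. These shares and sums carry no length offset. With the offset for exonic length the log2 fold changes were 0.20 for Itpr1, -0.00 for Itpr2 and 0.09 for Itpr3. Those of Plcb1, Plcb3 and Plcb4 were then -0.12, -0.05 and 0.18.

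**Figure D2:**
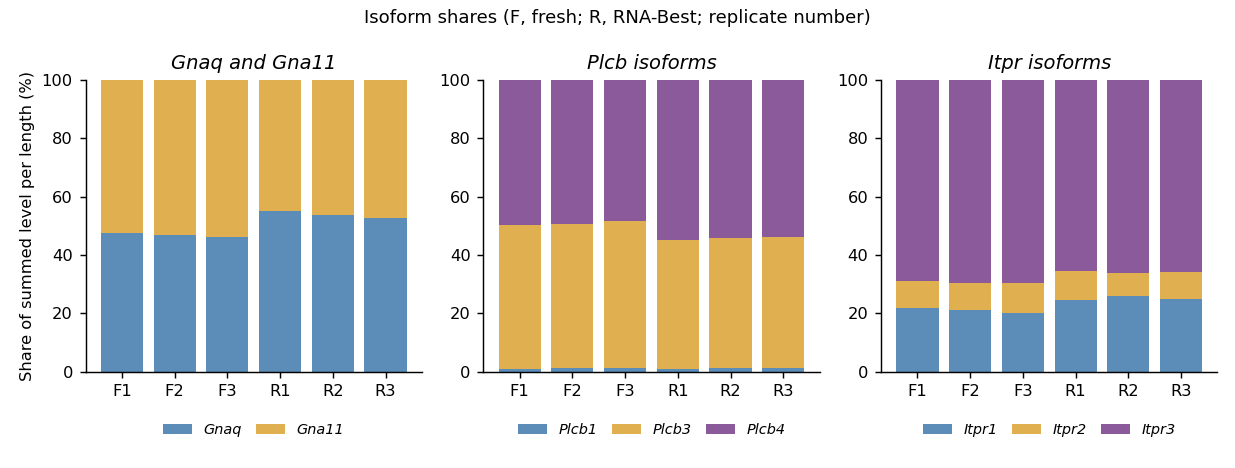
Stacked bars of the share of each gene in the summed RPKM of its family, in percent, with 1 bar per library (F, fresh; R, RNA-Best; replicates 1 to 3), for Gnaq and Gna11, the phospholipase C β genes and the IP3 receptors. The shares of Gnaq, Plcb4 and Itpr1 are higher in every RNA-Best library than in any fresh library, while those of Plcb1 and Itpr2 overlap.

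The IP3 receptor sequences were compared in the same way, because the shares depend on reads being told apart. The longest stretch common to the coding parts of any pair of them is the 32 bases shared by Itpr2 and Itpr3, shown 5′ to 3′ on the coding strand, in capitals, in windows of 100 bases, about the length of a read (GENCODE M21, GRCm38, positions 6657 to 6756 of the Itpr2 and 6579 to 6678 of the Itpr3 coding part).
Itpr2: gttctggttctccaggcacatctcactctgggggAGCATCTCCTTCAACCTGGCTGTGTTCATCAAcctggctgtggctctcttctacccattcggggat
Itpr3: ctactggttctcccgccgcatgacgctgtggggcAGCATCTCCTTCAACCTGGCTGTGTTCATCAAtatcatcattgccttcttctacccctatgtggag
The windows differ at 25 bases. Itpr1 shares at most 29 bases with Itpr3 and 28 with Itpr2, and the phospholipase C β genes share at most 19. No 100-base stretch was common to any pair of the 10 genes. Between 0.482% and 0.707% of the stretches of Plcb1, Itpr1 and Itpr3 were shared with genes annotated on the opposite strand, and 15.6% of those of Gnas. Values that were not whole numbers occurred in Gna11, Plcb1, Plcb4 and Itpr1, and the other 6 genes had whole counts. Gna11 and Plcb4 shared no stretch with another gene, so the search does not account for all such values.

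Read per kb of exons, the order of the levels in fresh libraries was Gnrhr, Gna11, Gnaq, Plcb3, Plcb4, Itpr3, Itpr1, Itpr2 and Plcb1. Neighbours in this order did not overlap in range, except Plcb3 with Plcb4. In RNA-Best libraries the order was Gnrhr, Gnaq, Gna11, Plcb4, Plcb3, Itpr3, Itpr1, Itpr2 and Plcb1, without overlap. Gnas, whose row may not hold its whole level, is left out of the order and had 1.42 ± 0.165 RPKM in fresh and 2.03 ± 0.124 RPKM in RNA-Best libraries. Gnrhr was the highest in both groups, at 37.2 ± 2.73 RPKM in fresh, 1.52 times the level of Gna11, and 51.2 ± 2.41 RPKM in RNA-Best, 2.02 times the level of Gnaq. Plcb1 was the lowest in both, at 0.348 ± 0.0347 and 0.392 ± 0.0736 RPKM.

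The middle of this order depended on the length used. Divided by the longest coding transcript, Plcb4 and Plcb3 came before Gnaq in fresh libraries, at 24.9 ± 1.04, 24.0 ± 0.425 and 23.6 ± 0.535 RPKM, with overlapping ranges between neighbours. In RNA-Best libraries Plcb4 came before Gnaq and Gna11, at 33.3 ± 0.333, 27.8 ± 1.43 and 26.1 ± 0.453 RPKM, without overlap. With either length Gnrhr was the highest, Gna11 was above Gnaq in fresh and below it in RNA-Best, Itpr3 was above Itpr1 and Itpr2, and Plcb1 was the lowest.

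**Figure D3:**
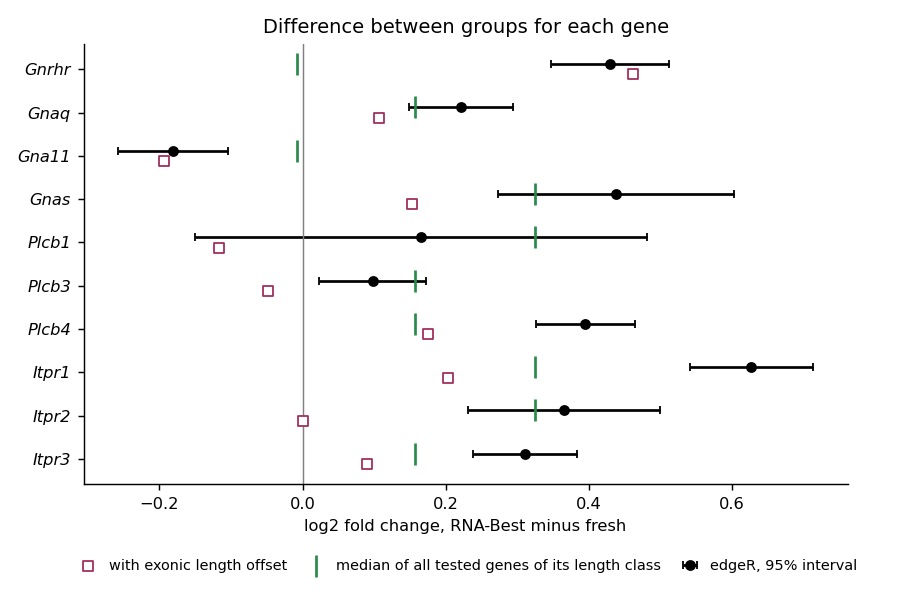
Log2 fold change (RNA-Best minus fresh) of each of the 10 genes from edgeR with its 95% confidence interval (black), the value with an offset for exonic length (open squares, without an interval), and the median of all tested genes in the length class of each gene (green ticks). Itpr1 has the highest value without the offset (0.63) and Gnrhr with it (0.46), and Itpr2 moves from 0.36 to -0.00.

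Gene length moved with the comparison, and most of the 10 genes are long. Their median exonic length was 8.99 kb, against 3.92 kb over all genes tested. Among genes of up to 3 kb, 6.75% were called higher and 40.7% lower in RNA-Best, and the median log2 fold change was -0.17. Among genes over 10 kb, 76.8% were called higher and 2.09% lower, with a median of 0.32. The part of length in the values of the single genes, in the shares within families and in the family sums was not tested. For the single genes, the values within each length class and with the offset are given here beside them. In each family the gene whose share rose is longer than the one whose share fell. These are Gnaq (6.18 kb) with Gna11 (4.10 kb), Plcb4 (8.97 kb) with Plcb3 (6.96 kb), and Itpr1 (18.32 kb) with Itpr3 (9.02 kb). Plcb1 (11.12 kb) and Itpr2 (14.80 kb) are also long, and their shares overlapped between the groups.

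Gnrhr, with 3.20 kb, stood furthest from genes of its length. Its log2 fold change of 0.43 was at percentile 94.5 of the class over 3 to 6 kb, whose median was -0.01, and with the length offset it was 0.46 (edgeR adjusted p = 1.16e-10). Gna11, in the same class with 4.10 kb, was at percentile 16.8, and its offset value was -0.19 (edgeR adjusted p = 7.08e-05). With an offset for GC content in place of length, the values were smaller and still significant, at 0.27 for Gnrhr (edgeR adjusted p = 2.99e-07), 0.14 for Gnaq (edgeR adjusted p = 0.00104) and -0.10 for Gna11 (edgeR adjusted p = 0.0327). Plcb4 was also smaller, at 0.27 (edgeR adjusted p = 9.97e-09), as were Itpr1 at 0.59, Itpr2 at 0.33 and Plcb1 at 0.05. Larger values were found for Plcb3 at 0.18, Gnas at 0.53 and Itpr3 at 0.40. In the class over 6 to 10 kb the median was 0.16 and 51.1% were called higher. Plcb4 stood at percentile 85.9 of this class, Itpr3 at 76.4, Gnaq at 62.3 and Plcb3 at 39.2. In the class over 10 kb, Itpr1 (18.32 kb) stood at percentile 88.1, Gnas at 68.4, Itpr2 at 56.8 and Plcb1 at 23.7.

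With the length offset, 5 of the 10 genes were called higher (Gnrhr, Gnaq, Plcb4, Itpr1 and Itpr3), 1 lower (Gna11) and 4 passed in neither direction (Gnas, Plcb1, Plcb3 and Itpr2). The offset fit called 40.8% of all genes, 15.6% higher and 25.3% lower. The median log2 fold change of the 10 genes was then 0.10, and that of all genes -0.04. Gnaq and Itpr3 kept smaller values, at 0.11 (edgeR adjusted p = 0.0121) and 0.09 (edgeR adjusted p = 0.0345), and Plcb4 had 0.18 (edgeR adjusted p = 4.91e-05).

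**Figure D4:**
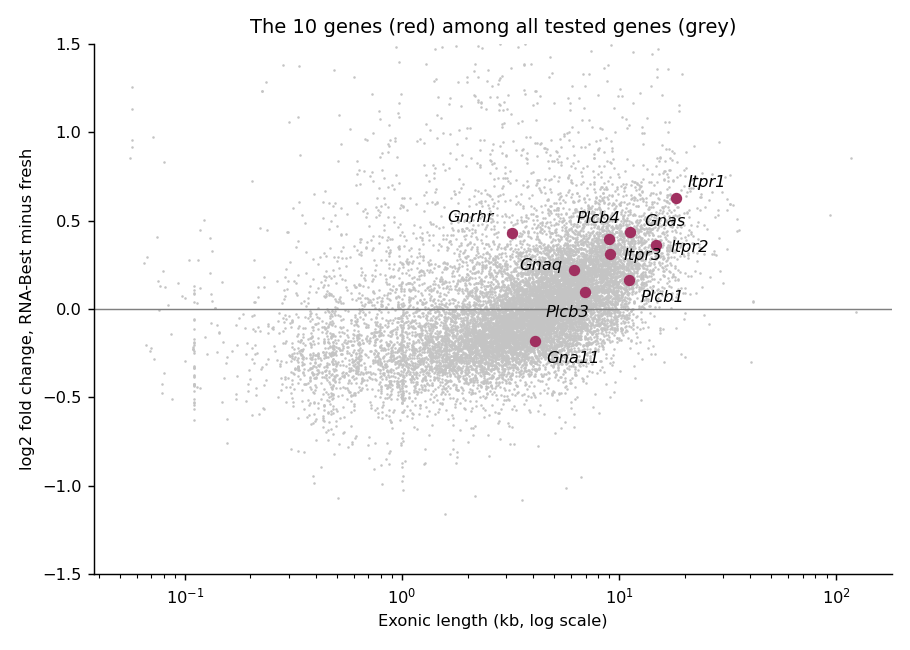
Log2 fold change (RNA-Best minus fresh) against exonic length in kb on a logarithmic axis for all tested genes (grey) and the 10 genes (red). Longer genes lie higher, Gnrhr lies above and Gna11 below most genes of their length, and 58 genes beyond the vertical range are not drawn.

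The genes whose values over the 6 libraries were most like those of Gnrhr were found by the root mean square difference of log2 CPM, centred on each gene's mean. Among the 5 nearest were Atrn (0.0279), Bcl7a (0.0299), Pkd1 (0.0309) and Togaram1 (0.0320). Among the chain itself, Plcb4 was nearest to Gnrhr, at 0.0553 and rank 111 of all tested genes. Gnas followed at rank 727 and Itpr3 at rank 755, and Gna11 was the farthest, at rank 9839.

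The wider pathway was described by 111 further genes in 9 lists, of which 110 were matched and 92 tested. In RNA-Best, 31 of the 92 were called higher and 19 lower, and 42 did not pass the test, where 26.0% and 24.8% of all tested genes were called higher and lower. Their median log2 fold change was 0.05. Gnai1, Gng11, Adcy4 and Dgkb had no count in any library, and a count of 0 allows a level of up to 0.0632 CPM at the highest depth and of 0.611 CPM at the lowest. With the length offset 13 were called higher and 28 lower, against 15.6% and 25.3% of all genes. The counts of the single lists are small and are given as a description.

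Of 7 other Gα genes tested, 2 were higher, 2 were lower and 3 did not pass, against 1 higher and 2 lower with the length offset. Gnao1, the Go subunit gene, rose from 26.9 ± 0.439 to 37.8 ± 1.71 CPM (log2 fold change 0.46, edgeR adjusted p = 2.00e-08, and 0.17 with the length offset), and Gna12 fell from 75.3 ± 1.3 to 68.4 ± 2.44 CPM (-0.17, edgeR adjusted p = 0.00131). The call of Gna12 was lost with the GC offset (edgeR adjusted p = 0.184) and without the third RNA-Best library (edgeR adjusted p = 0.0537). Among 11 Gβ and Gγ genes 1 was higher and 4 were lower, and 1 and 5 with the length offset. The higher one was Gng12, at 1.93 ± 0.238 CPM in fresh and 2.79 ± 0.544 CPM in RNA-Best libraries (0.53, edgeR adjusted p = 0.019). This call was lost in 8 alternatives, among them DESeq2 (adjusted p = 0.168), leaving out the first fresh library (edgeR adjusted p = 0.0535) and leaving out the third RNA-Best library (edgeR adjusted p = 0.396), and the value was -0.01 after thinning to equal depth. Gnb2, a Gβ gene, fell from 575 ± 11.8 to 458 ± 12.7 CPM (-0.34, edgeR adjusted p = 2.76e-12).

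Other phospholipase C genes gave 2 higher and 1 lower of 9 tested, but 0 higher and 2 lower with the length offset. Plce1 rose from 4.87 ± 0.731 to 7.29 ± 0.494 CPM (log2 fold change 0.52, edgeR adjusted p = 0.000757), but not with the length offset (0.14, edgeR adjusted p = 0.39). Plcd3 fell from 57.9 ± 0.478 to 51.1 ± 1.69 CPM (-0.19, edgeR adjusted p = 0.000586), which was lost with the GC offset (edgeR adjusted p = 0.175). Adenylyl cyclase genes, which encode the enzymes that Gs stimulates, were higher in 3 of 6 and lower in 0, and with the length offset 2 were higher and 1, Adcy5, was lower (-0.13, edgeR adjusted p = 0.000111). Adcy5, named after its values were seen, was called higher with the GC offset (0.14, edgeR adjusted p = 2.46e-05). Adcy9 rose from 5.35 ± 0.379 to 9.73 ± 1.25 CPM (0.83, edgeR adjusted p = 1.82e-07) and kept 0.76 with the length offset.

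Of 9 genes for receptor kinases, arrestins and Gα chaperones, 3 were higher and 2 lower, and 1 and 3 with the length offset. Their kinases went both ways: Grk3 rose from 19.3 ± 0.451 to 25.9 ± 2.31 CPM (log2 fold change 0.43, edgeR adjusted p = 2.34e-06, and 0.22 with the length offset), and Grk2 fell from 208 ± 2.9 to 191 ± 2.06 CPM (-0.14, edgeR adjusted p = 0.000282). The call of Grk2 was lost with the GC offset (edgeR adjusted p = 0.0984). Genes that supply the phosphoinositide substrate were higher in 5 and lower in 2 of 13, but higher in 1 and lower in 6 with the length offset. Pi4ka, a phosphatidylinositol kinase gene, rose from 222 ± 2.89 to 282 ± 3.8 CPM (0.32, edgeR adjusted p = 1.87e-11), but not with the length offset (0.03, edgeR adjusted p = 0.381). Pip5k1b fell from 2.89 ± 0.189 to 1.97 ± 0.666 CPM (-0.49, edgeR adjusted p = 0.0367). The call was lost with DESeq2 (adjusted p = 0.193) and without the first fresh, the second RNA-Best or the third RNA-Best library (edgeR adjusted p = 0.0968, 0.186 and 0.113).

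The 16 tested genes of IP3 and diacylglycerol turnover held 7 that were higher and 2 that were lower, but 3 and 4 with the length offset. Dgkh, a diacylglycerol kinase gene, rose from 7.49 ± 0.385 to 15.9 ± 1.74 CPM. Its log2 fold change of 1.06 (edgeR adjusted p = 8.16e-12) was above that of every gene of the chain, and 0.66 remained with the length offset (edgeR adjusted p = 3.82e-07). Itpka, an IP3 kinase gene, fell from 9.66 ± 0.957 to 7.35 ± 0.995 CPM (-0.41, edgeR adjusted p = 0.00273), a call that was lost after thinning (edgeR adjusted p = 0.167) and with the replicate block and length offset together (edgeR adjusted p = 0.0638).

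Calcium pump and store-operated entry genes were higher in 7 and lower in 3 of 14, and in 4 and 1 with the length offset. Atp2b4, a plasma membrane calcium pump gene, rose from 239 ± 6.99 to 364 ± 7.88 CPM (log2 fold change 0.58, edgeR adjusted p = 1.10e-17), with 0.26 under the length offset. Orai1, a channel of store-operated entry, fell from 11.2 ± 0.461 to 9.5 ± 0.798 CPM (-0.29, edgeR adjusted p = 0.0138), which was not significant with the length offset (edgeR adjusted p = 0.0792), with DESeq2 (adjusted p = 0.129) or without the third RNA-Best library (edgeR adjusted p = 0.222). Of 7 IP3 receptor partner genes, 1 was higher and 3 were lower, and 0 and 4 with the length offset. Calm2, a calmodulin gene, fell from 923 ± 21.7 to 821 ± 21.8 CPM (-0.18, edgeR adjusted p = 8.40e-07, -0.07 with the length offset and -0.32 with the GC offset), a call that was lost with the replicate block and length offset together (edgeR adjusted p = 0.0554). Ahcyl1, which encodes a protein that binds the IP3 receptor, was the 1 that was higher, from 106 ± 1.42 to 119 ± 7.21 CPM (0.14, edgeR adjusted p = 0.00228), but not with the length offset (0.00, edgeR adjusted p = 0.934) or the GC offset (0.06, edgeR adjusted p = 0.214).

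**Figure D5:**
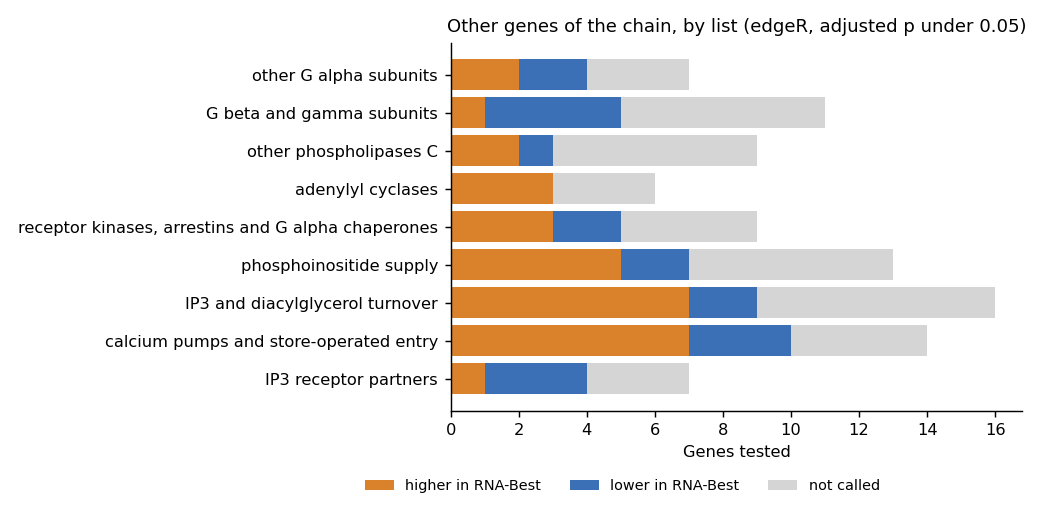
Number of tested genes in each of the 9 pathway lists that were called higher in RNA-Best (orange), called lower (blue) or not called (grey) with edgeR at an adjusted p under 0.05. Of the 92 genes, 31 were called higher and 19 lower without a length offset, and 13 higher and 28 lower with it (not drawn).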

How the data were processed

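Bulk RNA-seq libraries of GnRH-treated LβT2 cells were used, 3 fresh and 3 preserved in RNA-Best. Single reads were mapped by the authors with STAR 2.5.1b (GRCm38, GENCODE M8 annotation) and counted with featureCounts 1.5.0-p1. What the authors deposited are estimated counts, 1 value per gene and library, with no scaling for depth. In each library 9.36% to 16.3% of them lay more than 0.001 from a whole number, and how reads that fit several genes were divided is not given in the sources used here.

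Counts were rounded and tested in R 4.3.3 with edgeR 4.0.16 (quasi-likelihood test), TMM scaling (factors 0.994 to 1.01) and filterByExpr (minimum count 10). The test was fitted on all genes, with Benjamini-Hochberg adjustment over 14736 genes and a threshold of 0.05. CPM was computed from column totals and RPKM from exonic length in GENCODE M21, a later release on the same assembly. Of 47069 gene identifiers, 46488 were found there. Length and GC offsets came from a loess fit (span 0.5) per library. Shares within families were compared by exact permutation tests. Pairs of libraries had a chi-square per gene of 1.08 to 2.21 within groups and 9.77 to 17.3 between them. These values were not tested against sampling noise, and no library was treated as deposited more than once. The common coefficient of variation beyond counting error was 2.14% in the edgeR fit, a small spread on which the p-values rest. A count of 0 allows up to 3 counts, and intervals cover counting error only where they are of counts.

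The genes of the chain and the pathway and marker lists were chosen with earlier results of these data known. Named from each pathway list are the largest rise and the largest fall among called genes with groups that do not overlap and a mean of at least 1 CPM, genes at 0 everywhere, and the 5 genes nearest to Gnrhr. Some of these, and 1 pair of sequences, are not reported here. Alternatives were other size factors, DESeq2 1.42.0, limma-voom (limma 3.58.1), other filters, a replicate block, length and GC offsets, thinning to 4909268 counts, a test against a 1.2-fold change, and leaving out each library.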

Additional observations from a re-analysis of the deposited data

How the results depend on the processing

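The 10 genes gave 9 calls, and 17 alternatives gave 7 to 9 except the test against a 1.2-fold change, which called 4 (Gnrhr, Gnas, Plcb4 and Itpr1), and the length offset, which called 6. The test against a 1.2-fold change called 12 of 92 other pathway genes in place of 50, with 11 higher and 1 lower. It called 11.5% of all genes. Without a filter, the pathway genes split into 19 higher and 22 lower in place of 31 and 19. All genes moved the same way, with 3256 higher and 4381 lower of 27250 in place of 3828 and 3651 of 14736. Log2 fold changes changed sign for Plcb1 with the length offset (-0.12), the offset with a replicate block (-0.16) and thinning (-0.15), for Plcb3 with the length offset (-0.048) and with both (-0.0495), and for Itpr2 with the offset (-0.0001) and with both (-0.027). The cause was not tested. Plcb3 kept its call in 9 of 17 alternatives, Itpr2 in 13, and Gnrhr, Plcb4 and Itpr1 in 17. After thinning, Itpr2 was at 0.23 (edgeR adjusted p = 0.0743). Differences in share (percentage points, RNA-Best minus fresh) after thinning were 9.23 for Gnaq, -0.364 for Plcb1, 5.92 for Plcb4, 5.21 for Itpr1 and -4.7 for Itpr3. Shares of counts gave 5.33 for Itpr1 and -4.39 for Itpr3, and coding transcript lengths 5.26 and -4.51. An alternative chosen after seeing the data divided CPM by the length of the longest coding transcript. It gave levels in RPKM, fresh then RNA-Best, of 52.5 and 72.3 for Gnrhr, 23.6 and 27.8 for Gnaq, 29.4 and 26.1 for Gna11, 4.03 and 5.76 for Gnas, 0.537 and 0.606 for Plcb1, 24.0 and 25.9 for Plcb3, 24.9 and 33.3 for Plcb4, 6.31 and 10.0 for Itpr1, and 1.98 and 2.5 for Itpr2. Among the pathway genes described by name above, the GC offset ended the calls of Gna12, Gng12, Plcd3, Grk2, Orai1 and Ahcyl1.

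Deviations of same-numbered libraries correlated at -0.00844, 0.0121 and -0.0077 over the tested genes. This cannot decide whether replicate numbers pair the libraries, because counting noise, which is independent between libraries, makes up much of the deviations. With a replicate block, 9 of the 10 genes and 51 of the pathway genes were called, and 7472 genes in all against 7479 without it. Plcb1 had the fewest counts of the 10 genes, with 24 in the shallowest library, and the part of depth in its missing call was not tested.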
